A study of Triticum urartu with 18 samples.

Results

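Endosperm at 25 days post anthesis (DPA) was set against endosperm at 15 DPA in Triticum urartu, a wild diploid wheat. The 3 libraries of 25 DPA and the 3 of 15 DPA were chosen by their column headings, and make up 6 of the 18 RNA-Seq libraries of the series. All came from untreated wild-type plants of the accession PI 428198, and the stage is the single labelled difference. Per the labels, each stage had 3 independent biological replicates, and the embryo, aleurone, seed coat and pericarp were taken off before the RNA was extracted. Whether grains or plants were pooled within a replicate is not given in the sources used here.

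Starchy endosperm is the storage tissue of the cereal grain. In its filling phase it makes the storage prolamins, the gliadins and glutenins that form gluten, and it builds starch out of imported sucrose through ADP-glucose. As the grain matures the tissue dries, and its cells die by a developmental programme while the aleurone and embryo stay alive. The comparison addressed which of these transcripts differ between mid filling and the last stage sampled.

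Each gene had an FPKM value per library, that is, fragments counted per kilobase of transcript and relative to the sequenced fragments of the library. The 25 DPA libraries were unlike one another. Library 1 of 25 DPA had a total of 3605504 FPKM and 10644 genes above 0, whereas libraries 2 and 3 of that stage had 17135 and 17237 such genes and the 15 DPA libraries had 15305 to 16131. In both measures library 1 of 25 DPA was nearer to the 20 DPA libraries, whose totals were 3556315 to 3596339 FPKM with 9328 to 11010 genes above 0. Its gene ranks correlated with the 15 DPA libraries at a Spearman rho of 0.661 to 0.667 with those of 20 DPA at 0.598 to 0.633 and with the other 25 DPA libraries at 0.697 to 0.703. The 20 DPA libraries themselves correlated with 15 DPA at 0.614 to 0.663 and with one another at 0.612 to 0.624. Whether the label of library 1 is right was not tested. The median SD of a gene over 3 libraries, on the log2(FPKM + 1) scale, was 1.38 at 25 DPA and 0.32 at 15 DPA. Relative read depth, estimated from the smallest FPKM steps, was 0.941, 1.00 and 0.746 at 25 DPA, against 1, 0.988 and 0.842 at 15 DPA. By this estimate it did not follow the FPKM totals. The value for library 1 of 25 DPA is the least certain, as 124 of 839 genes shared it, against 533 of 1337 and 320 of 953 for libraries 2 and 3.

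Library 1 of 25 DPA lay below the 15 DPA mean for 94.5% of the 12681 genes tested, and libraries 2 and 3 lay below it for 28% and 24.9%. The median change of all genes against 15 DPA was -1.61, 0.46 and 0.79 log2 units in the 3 libraries of 25 DPA. Median-ratio scaling, which divides each library by its median ratio to the geometric mean over genes detected in all 6 libraries, used factors of 0.205, 1.70 and 2.33 at 25 DPA, against 1.08, 1.25 and 1.07 at 15 DPA. After it these medians were -0.37, -0.01 and -0.03, and the median SD at 25 DPA was 0.56, against 0.29 at 15 DPA. Results are therefore given on the deposited scale and on the scaled one.

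**Figure D1:**
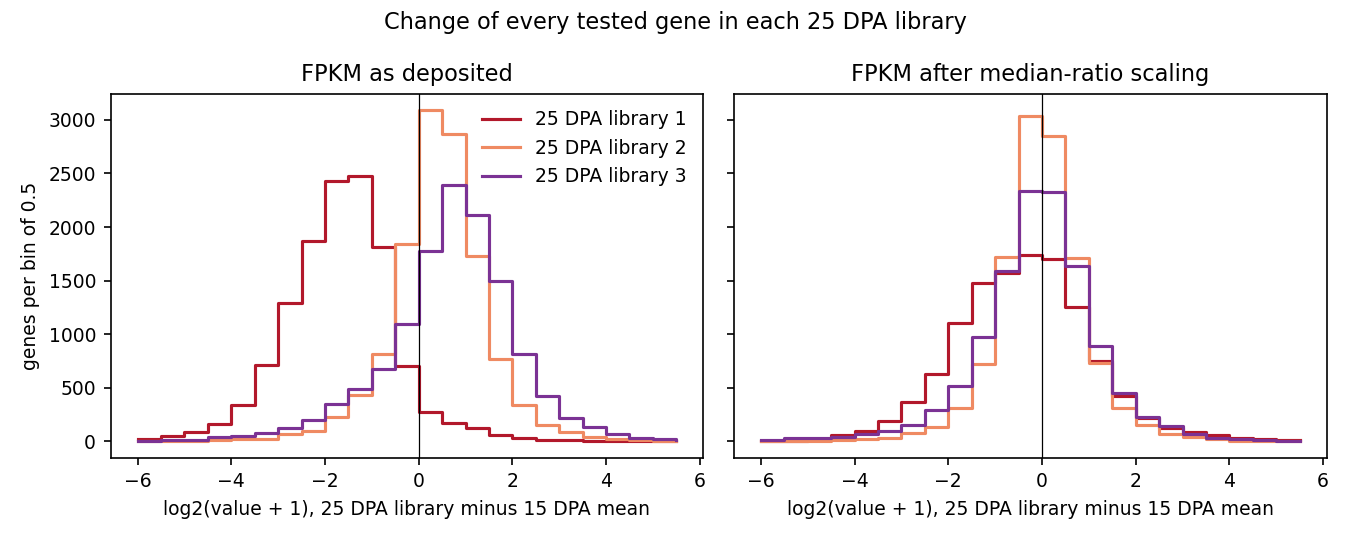
Number of tested genes (y axis, bins of 0.5) by their change in each 25 DPA library relative to the 15 DPA mean (x axis, log2 units of value + 1), as deposited on the left and after median-ratio scaling on the right. As deposited, the curve of library 1 sits left of 0 (median -1.61) and those of libraries 2 and 3 sit right of it (0.46 and 0.79); after scaling all 3 medians lie between -0.37 and -0.01; genes beyond 6 units in either direction are not drawn.

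Storage protein transcripts were lower in every 25 DPA library than in any 15 DPA library, for all 21 prolamin genes and on both scales. Of all tested genes, 11.7% were lower without overlap as deposited and 22.6% after scaling. By the test, however, 0 of the 21 were called as deposited and 1 after scaling. Of the genes listed as starch synthesis related, 7 of 26 tested were called lower after scaling, where 6.31% of all genes were. In the same list 1 gene, the starch synthase gene TuSSIIb, was called higher. Among those called lower, TuSPS1, TuPHO1 and TuSSIIIa passed a filter on low values (at least 1 FPKM in at least 3 libraries) only through 15 DPA. No gene of the list was called as deposited (0 of 27 by limma, 10 at an unadjusted p under 0.05), or on either scale without any 1 of the 15 DPA libraries. The 2 abundant unannotated genes TRIUR3_32831 and TRIUR3_00113 did not separate the stages. In bulk tissue, fewer cells of a type and less RNA per cell cannot be told apart.

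A gene was called when the adjusted p of limma (Benjamini-Hochberg, over all genes tested) was under 0.05 and the log2 change, 25 minus 15 DPA, was at least 1 in size. As deposited, limma called 206 of 12681 genes, 82 higher and 124 lower at 25 DPA, or 1.62%, with 1103 at an unadjusted p under 0.05. After median-ratio scaling it called 1251 of 11987 genes (10.4%), 495 higher and 756 lower. Of the 206 deposited calls, 193 were also called after scaling, all 193 in the same direction. The typical SE of a log2 change was 0.95 as deposited and 0.39 after scaling. As deposited, limma gave each gene the variance of the trend over all genes at its level and none of its own spread, so a deposited SE or p does not reflect how alike that gene's own libraries were. After scaling the gene's own spread (4 residual degrees of freedom) was weighed with the trend (3.17 prior degrees of freedom). The median change over all genes was -0.16 as deposited and -0.14 after scaling.

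These counts rest on the 3 libraries of each stage. Without library 1 of 25 DPA, limma called 3420 genes as deposited, 2784 higher and 636 lower, and 1899 after scaling. Without library 2 or 3 of 25 DPA it called 25 and 5 as deposited, against 1151 and 351 after scaling. Without library 1, 2 or 3 of 15 DPA limma called 0 as deposited each time, with 413, 395 and 439 at an unadjusted p under 0.05, and 14, 40 and 75 after scaling. Each call of a single gene below is from the fit of all 6 libraries. Without each 15 DPA library in turn, 26 of the 54 named genes tested lost a call made after scaling. The 54 include genes that were not called with all 6 libraries, so the part of the calls that was lost is larger. Of 55 named genes, 30 that were not called as deposited were called without library 1 of 25 DPA, and 8 that were not called after scaling.

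The gliadins are monomeric storage proteins, and the γ gliadin gene Gli-γ-1 was the most abundant annotated gene of the comparison. Its FPKM was 2586, 53309 and 11310 at 25 DPA, against 90223, 84596 and 99667 at 15 DPA. The groups did not overlap, and library 2 of 25 DPA stood far above the other two of its stage. The log2 change was -2.98 (SE 0.96, limma adjusted p = 0.085) as deposited and -2.70 (SE 1.48, adjusted p = 0.285) after scaling, so it was not called on either scale. Without library 2 of 25 DPA it was called as deposited (log2 change -4.08, adjusted p = 0.000341). The α gliadin Gli-α-2 had 240, 3212 and 548 FPKM at 25 DPA, against 11600, 10890 and 11019 FPKM at 15 DPA. It was the 1 prolamin gene that fell by the test after scaling (log2 change -3.62, SE 0.83, limma adjusted p = 0.0385), and it was not called as deposited (log2 change -3.89, adjusted p = 0.133). The scaled call was not made without library 3 of 25 DPA (-2.71, adjusted p = 0.0542), and a deposited one was made without library 1 (-3.07, adjusted p = 0.014).

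Gli-ω-1, which encodes an ω gliadin, showed the smallest difference among the 21 prolamin genes. It had 860, 14364 and 3055 FPKM at 25 DPA, against 15155, 18198 and 18752 FPKM at 15 DPA, so that library 2 of 25 DPA came close to the lowest 15 DPA library. Its log2 change was -2.37 as deposited (limma adjusted p = 0.57). The glutenins cross-link into the gluten polymer. Among the low molecular weight genes, TuA3-538a had 1601, 26163 and 3715 FPKM at 25 DPA, against 38626, 31713 and 39569 FPKM at 15 DPA. Of the high molecular weight genes that form the polymer's backbone, TuGlu-1Ax had 684, 13015 and 2102 FPKM at 25 DPA, against 18852, 18184 and 18365 FPKM at 15 DPA. Its partner TuGlu-1Ay had 403, 5977 and 938 FPKM at 25 DPA, against 10764, 9920 and 7798 FPKM at 15 DPA. All 3 glutenin genes had separate groups and none was called. Reads of close relatives within the gliadin and glutenin families may have been divided between them in the authors' counting, which makes the level of a single family member uncertain.

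Over the list, limma called 0 of 21 prolamin genes as deposited, with 21 at an unadjusted p under 0.05, against 1.62% of all genes called. After scaling it called 1 lower and 0 higher, with 18 at an unadjusted p under 0.05 and 10.4% of all genes called. The log2 changes ran from -3.89 to -2.37 as deposited (median -3.33) and from -3.62 to -2.09 after scaling (median -3.05), beside medians of -0.16 and -0.14 for all genes. Without library 1 of 25 DPA, 13 of 21 were called as deposited and 11 after scaling, where 3420 of 12500 and 1899 of 12526 genes were called. Without library 2 of 25 DPA the counts were 10 and 6, where 25 of 11550 and 1151 of 10874 genes were called. A fit of all 15 endosperm libraries, which takes the spread from all stages, called 15 and 21 of them lower, where it called 3.64% and 6.35% of all genes lower (4.68% and 10.4% in either direction).

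The prolamins together took 0.382%, 12.1% and 1.99% of the total FPKM at 25 DPA, against 22.1%, 20.4% and 20.8% at 15 DPA. The groups did not overlap (difference of means -16.3 percentage points, two-sided exact permutation p = 0.1, adjusted p = 0.188 over 15 share measures), and 0.1 is the smallest p that 3 against 3 libraries allow. Outside the 12 genes with the highest FPKM, 1 of which is Gli-γ-1, the other 20 prolamin genes took 1.58%, 17.7% and 2.75% at 25 DPA, against 38.8%, 36.1% and 35.2% at 15 DPA. Library 2 of 25 DPA thus held the largest share of its stage on either base.

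**Figure D2:**
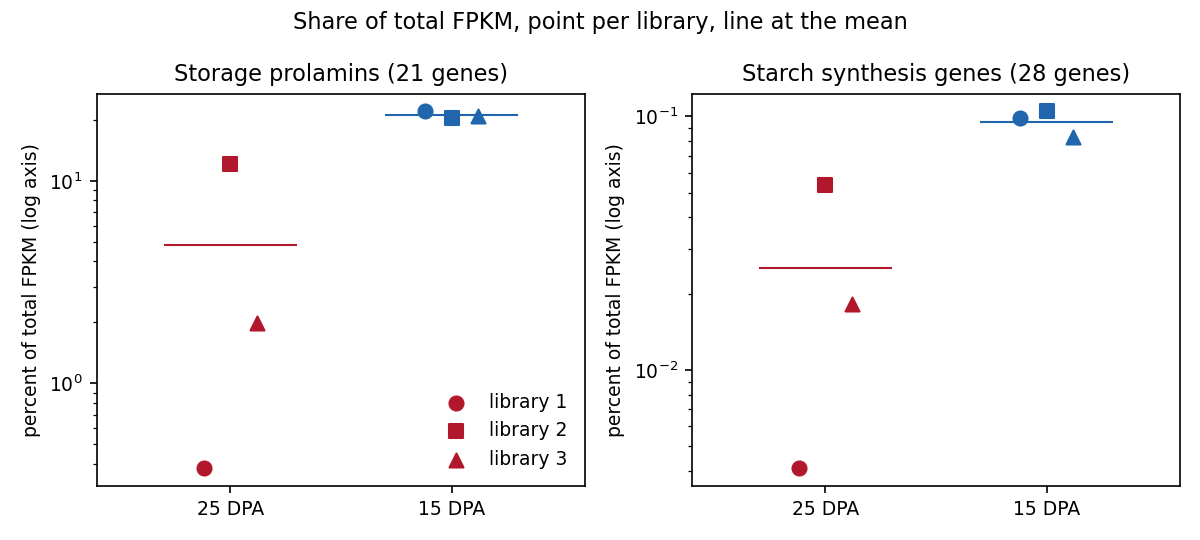
Share of the total FPKM (y axis, percent, log axis) taken by the 21 storage prolamin genes on the left and the 28 starch synthesis genes on the right, with a point for each library of 25 DPA and of 15 DPA and a line at the mean of the stage. The 25 DPA points spread from 0.382% to 12.1% for the prolamins, all below the 15 DPA points at 20.4% to 22.1%.

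All 21 prolamin genes were higher in library 2 than in library 3 of 25 DPA, by 4.39-fold to 10.7-fold (median 6.91). Over the 5019 genes at 1 FPKM or more in each 25 DPA library, the median ratio of library 2 to library 3 was 0.681, and 182 of them (3.63%) had a ratio of 3 or more. Relative to the 20 DPA libraries the 3 libraries of 25 DPA also took different places. Every prolamin gene lay below the lowest 20 DPA library in library 1 and above the highest in library 2, whereas in library 3 7 lay below, 5 above and 9 within. After scaling the order changed: library 3, not library 1, had the lowest prolamin values, with a median change against 15 DPA of -2.57, -1.71 and -4.93 in libraries 1, 2 and 3.

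The make-up of the prolamin pool differed less than its size. The α gliadins made up 31.4%, 25.3% and 22.5% of prolamin FPKM at 25 DPA, against 34.7%, 36.7% and 32.8% at 15 DPA. The high molecular weight glutenins made up 7.89%, 8.48% and 8.14% at 25 DPA, against 6.95%, 7.01% and 6.10% at 15 DPA. Gli-ω-1 alone made up 6.24%, 6.41% and 8.18% at 25 DPA, against 3.56%, 4.54% and 4.37% at 15 DPA. For these 3 measures the groups did not overlap, the α gliadin part being smaller at 25 DPA and the other 2 larger (exact permutation p = 0.1 each, adjusted p = 0.188). The γ and ω gliadins together made up 33.3%, 39.4% and 49.2% at 25 DPA, against 34.9%, 36.1% and 37.4% at 15 DPA, and overlapped. The low molecular weight glutenins, with 27.4%, 26.8% and 20.2% at 25 DPA and 23.4%, 20.2% and 23.7% at 15 DPA, also overlapped.

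**Figure D3:**
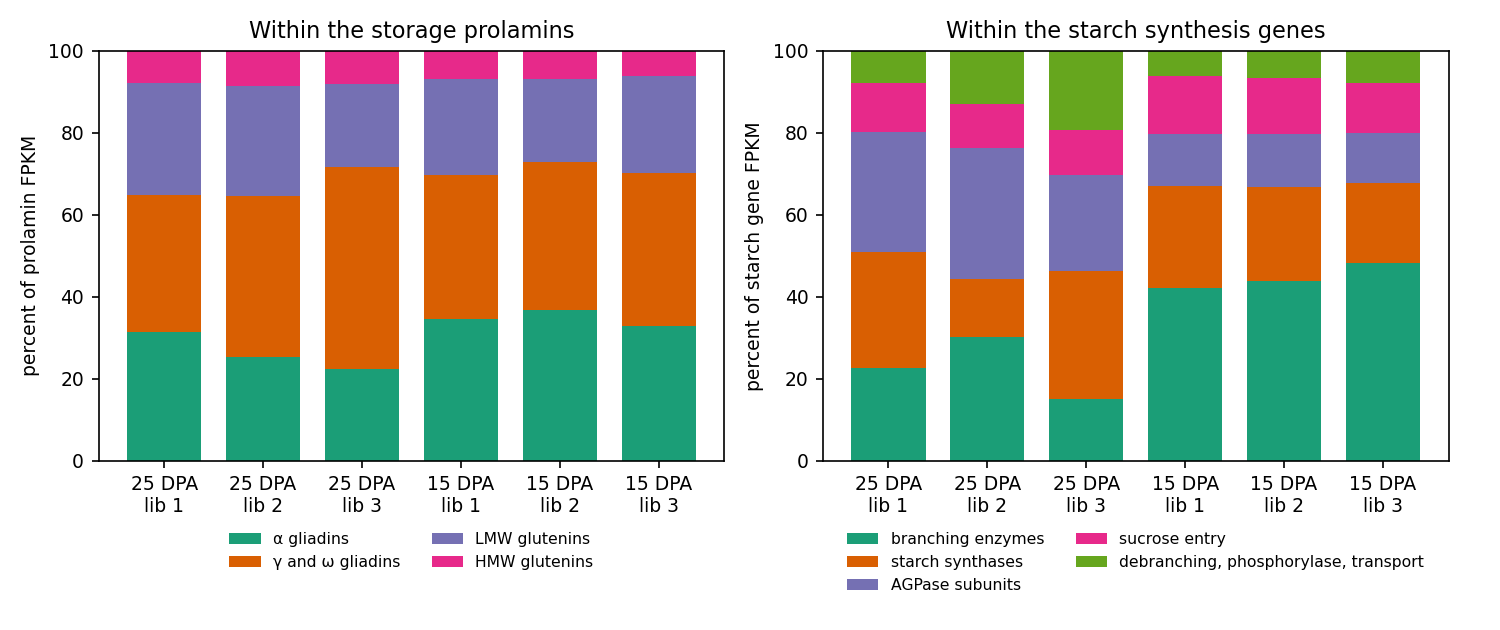
Stacked bars of the share (y axis, percent) that each class took of prolamin FPKM on the left and of starch gene FPKM on the right, with a bar for each library of 25 DPA and then of 15 DPA. On the right, the branching enzyme part is 15.2% to 30.3% at 25 DPA, against 42.2% to 48.1% at 15 DPA, and the AGPase part is 23.4% to 32.1%, against 12.1% to 13.0%.

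Starch synthesis starts with the cleavage of sucrose. TuSuSy2, a sucrose synthase gene, had 4.04, 4.73 and 3.15 FPKM at 25 DPA, against 88.6, 73.8 and 40.7 FPKM at 15 DPA. The groups were far apart as deposited, and the 3 libraries of 25 DPA were close to one another, but the scaled values were 19.7, 2.78 and 1.35 at 25 DPA, against 82.2, 58.9 and 38.0 at 15 DPA. TuSuSy2 fell after scaling (log2 change -3.35, SE 0.78, limma adjusted p = 0.0392) and was not called as deposited (-3.73, adjusted p = 0.117). The second sucrose synthase gene, TuSuSy1, had 2.05, 34.1 and 12.3 FPKM at 25 DPA, against 71.0, 82.8 and 64.1 FPKM at 15 DPA, and fell after scaling (-2.52, SE 0.43, limma adjusted p = 0.0177). TuSPS1, a sucrose phosphate synthase gene, fell too after scaling (-2.11, SE 0.51, adjusted p = 0.0431). On either scale TuSPS1 passed the filter on low values only through 15 DPA, so its calls lend no support to the difference. TuUGPase, the UDP-glucose pyrophosphorylase gene, had separate groups at 10.9, 60.8 and 21.2 FPKM at 25 DPA, against 94.2, 110 and 89.0 FPKM at 15 DPA, with no call (adjusted p = 0.113 after scaling). TuSuSy2 and TuSPS1 were not called after scaling without library 2 or 3 of 25 DPA, while without library 1 these 4 genes were all called as deposited, with log2 changes of -3.74 to -1.41. In that last fit 636 of 12500 genes were called lower.

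ADP-glucose pyrophosphorylase (AGPase) makes the sugar donor of starch. Its cytosolic large subunit gene TuAGPL-cyto had 28.7, 238.5 and 39.55 FPKM at 25 DPA, against 94.4, 105 and 92.8 FPKM at 15 DPA. Library 2 of 25 DPA was above every 15 DPA library and the other 2 were below, and no call was made (log2 change -0.57 as deposited, -0.29 after scaling, limma adjusted p = 1 and 0.837). The direction was not stable: it was 0.01 as deposited without library 1 of 25 DPA, and 0.72 after scaling without library 3 of 25 DPA. The small subunit gene TuAGPS-cyto had 13.3, 75.1 and 37.3 FPKM at 25 DPA, against 132, 156 and 109 FPKM at 15 DPA, with separate groups and no call (adjusted p = 0.0735 after scaling, and 0.0248 without library 1 of 25 DPA). The 4 AGPase genes together took 29.3%, 32.1% and 23.4% of starch gene FPKM at 25 DPA, against 12.5%, 13.0% and 12.1% at 15 DPA.

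Among the branching enzymes, which form the branch points of amylopectin, TuSBEI was the most abundant starch gene at 15 DPA. It had 26.6, 270 and 36.8 FPKM at 25 DPA, against 748, 846 and 778 FPKM at 15 DPA. TuSBEI fell after scaling (log2 change -3.31, SE 0.81, limma adjusted p = 0.0452) but not as deposited (-3.59, adjusted p = 0.367). TuSBEIIa, with 3.90, 24.9 and 14.1 FPKM at 25 DPA and 34.8, 37.5 and 31.4 FPKM at 15 DPA, had separate groups and no call (adjusted p = 0.0862 after scaling, and 0.0339 without library 1 of 25 DPA). The branching enzymes took 22.6%, 30.3% and 15.2% of starch gene FPKM at 25 DPA, against 42.2%, 44.0% and 48.1% at 15 DPA. The AGPase and branching enzyme shares did not overlap between the stages (exact permutation p = 0.1 each, adjusted p = 0.188).

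The granule-bound starch synthases make amylose, TuGBSSI being the endosperm form and TuGBSSII the form of other tissues in cereals. TuGBSSI had 33.8, 73.5 and 2.17 FPKM at 25 DPA, against 427, 419 and 298 FPKM at 15 DPA. The groups were separate, the 3 values at 25 DPA were unlike one another, and no call was made (log2 change -4.23, SE 1.52, limma adjusted p = 0.162 as deposited, and -3.79, adjusted p = 0.139 after scaling). TuGBSSII had 0.38, 21.3 and 34.1 FPKM at 25 DPA, against 3.75, 4.51 and 5.82 FPKM at 15 DPA, and overlapped. Of the FPKM of the pair, TuGBSSII thus took 1.11%, 22.5% and 94.0% at 25 DPA, against 0.870%, 1.07% and 1.92% at 15 DPA and 100% in each flag leaf library. In 5 DPA endosperm it took 67.6% to 78.1%, so a high share was not particular to leaf. The 3 libraries of 25 DPA were very unlike on this measure (exact permutation p = 0.2). Without library 1 of 25 DPA both genes were called as deposited, in opposite directions: TuGBSSI at -4.62 (limma adjusted p = 0.0158) and TuGBSSII at 2.31 (adjusted p = 0.00425). The same held after scaling (-5.22 and 1.64).

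The soluble synthases extend the chains of amylopectin. TuSSIIb, whose counterpart in rice is mainly a leaf gene, had 2.21, 18.4 and 39.6 FPKM at 25 DPA, against 3.48, 5.80 and 5.56 FPKM at 15 DPA. As deposited the groups overlapped, since library 1 of 25 DPA was below the 15 DPA libraries. On the scaled values, 10.8, 10.8 and 17.0 at 25 DPA against 3.23, 4.63 and 5.19 at 15 DPA, they did not, and TuSSIIb rose (log2 change 1.36, SE 0.30, limma adjusted p = 0.0348). That call was kept under 4 of 13 alternatives. It was not made without library 2 or 3 of 25 DPA (adjusted p = 0.0521 and 0.0966), and was made as deposited without library 1 (log2 change 2.26, adjusted p = 0.0073). TuSSIIIa had 0, 3.39 and 0.97 FPKM at 25 DPA, against 8.26, 9.92 and 7.09 FPKM at 15 DPA, and fell after scaling (-2.37, SE 0.44, adjusted p = 0.0234), except without library 3 of 25 DPA (adjusted p = 0.0714). TuSSIIIa passed the filter on low values, at least 1 FPKM in at least 3 libraries, only through 15 DPA. Its call therefore lends no support to the difference.

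Of the genes for trimming and remodelling the chains, TuPHO1, the plastidial starch phosphorylase, was listed at 0 in libraries 1 and 3 of 25 DPA and had 2.40 FPKM in library 2, against 9.86, 9.25 and 8.47 FPKM at 15 DPA. TuPHO1 fell after scaling (log2 change -2.77, SE 0.42, limma adjusted p = 0.0138) and missed the threshold as deposited (adjusted p = 0.0752). TuPHO1 too passed the filter on low values only through 15 DPA, so its call lends no support to the difference. The isoamylase gene TuISA2, a debranching enzyme gene, fell after scaling (-1.27, SE 0.26, adjusted p = 0.0291), but not without library 2 or 3 of 25 DPA. Its relatives TuISA1 and TuISA3 were not called, and TuISA3 was the only debranching gene with scaled values higher at 25 DPA, at 7.51, 5.75 and 8.97 against 4.13, 3.73 and 4.71 at 15 DPA (log2 change 0.68, adjusted p = 0.159). The pullulanase gene TuPUL had 2.94, 8.24 and 0.76 FPKM at 25 DPA, against 28.4, 31.4 and 26.6 FPKM at 15 DPA, without a call (adjusted p = 0.0988 after scaling, and 0.0227 without library 1 of 25 DPA). TuPUL too passed the filter on low values only through 15 DPA, so the value without library 1 lends no support to the difference.

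Over the 28 starch genes, limma called 0 of 27 tested as deposited, with 10 at an unadjusted p under 0.05. After scaling it called 7 of 26 tested lower (TuSuSy2, TuSBEI, TuPHO1, TuSuSy1, TuSSIIIa, TuSPS1 and TuISA2) and 1 higher (TuSSIIb), where 6.31% of all genes were called lower and 4.13% higher. Among these, TuPHO1, TuSSIIIa and TuSPS1 passed the filter on low values only through 15 DPA. The median log2 change was -1.42 as deposited and -1.28 after scaling. The groups were separate and lower at 25 DPA for 17 genes as deposited and 15 after scaling, where 11.7% and 22.6% of all genes were so. They were separate and higher for 0 as deposited and 2 after scaling, where 1.84% and 14.1% of all genes were so. Without library 1 of 25 DPA, 15 were called as deposited and 17 after scaling, without library 2 or 3 of 25 DPA 0 as deposited and 5 and 3 after scaling, and without any 1 library of 15 DPA 0 on either scale. Over all genes, limma called 3420 of 12500 as deposited and 1899 of 12526 after scaling without library 1 of 25 DPA. After scaling it called 1151 of 10874 without library 2 and 351 of 10722 without library 3. The list took 0.00411%, 0.0536% and 0.0182% of the total FPKM at 25 DPA, against 0.0982%, 0.105% and 0.0831% at 15 DPA, with no overlap (exact permutation p = 0.1, adjusted p = 0.188).

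**Figure D4:**
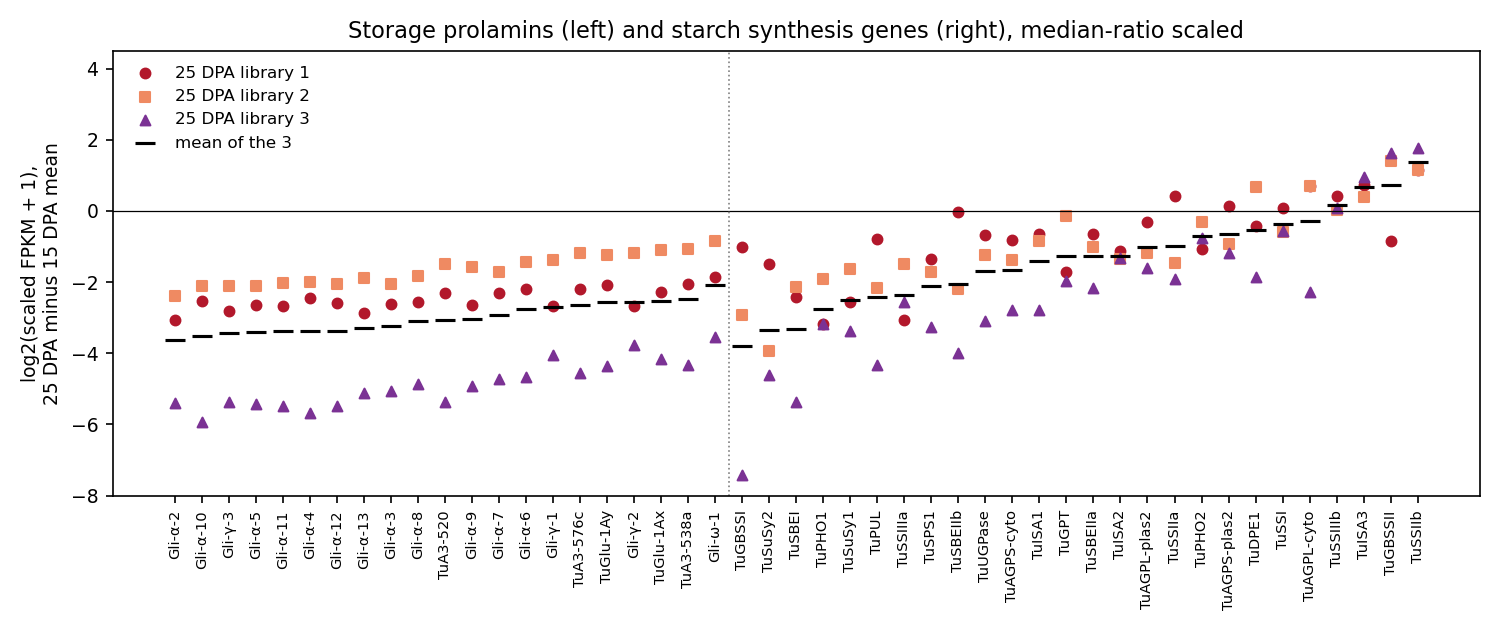
Change of each tested prolamin gene (left of the dotted line) and starch synthesis gene (right of it) in each 25 DPA library relative to the 15 DPA mean (y axis, log2 units of median-ratio scaled FPKM + 1), with a coloured point per library and a black bar at their mean. All prolamin points lie below 0, library 3 lowest, and the starch gene means run from -3.79 (TuGBSSI) to 1.36 (TuSSIIb).

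Among the individually named regulators, Tuglup3 (TRIUR3_18628) was the single one to fall on both scales. In rice the gene of that name encodes a vacuolar processing enzyme, a protease that cleaves storage protein precursors. It had 1.00, 5.93 and 0 FPKM at 25 DPA, against 43.1, 46.9 and 26.7 FPKM at 15 DPA, without overlap. The log2 change was -4.01 as deposited (SE 1.13, limma adjusted p = 0.0312) and -3.53 after scaling (SE 0.65, adjusted p = 0.0227). Tuglup3 passed the filter on low values only through the 15 DPA libraries, so the call lends no support to the difference. The deposited call was not made without library 2 or 3 of 25 DPA (adjusted p = 0.0902 and 0.478). TuWPBF (TRIUR3_33098), a Dof protein that recognises the prolamin box of storage protein genes, had 3.49, 12.8 and 0.64 FPKM at 25 DPA, against 40.9, 41.1 and 30.1 FPKM at 15 DPA. Its groups were separate, with no call (log2 change -3.03, adjusted p = 0.26 as deposited, and -2.54, adjusted p = 0.113 after scaling). Without library 1 of 25 DPA it was called on both scales (-3.00, adjusted p = 0.0215, and -3.49, adjusted p = 0.0367). In those fits 636 of 12500 genes were called lower as deposited and 1007 of 12526 after scaling. TuWPBF too passed the filter on low values only through 15 DPA, so these calls lend no support to the difference. TuSPA (TRIUR3_18984), named after the bZIP storage protein activator of wheat, had 0.41, 6.22 and 1.04 FPKM at 25 DPA, against 5.45, 3.16 and 7.88 FPKM at 15 DPA, and overlapped.

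TuGAMYB (TRIUR3_27104), a MYB factor of the gibberellin response in cereal grains, had 2.57, 26.9 and 29.3 FPKM at 25 DPA, against 31.8, 29.9 and 29.9 FPKM at 15 DPA. After scaling its adjusted p was 0.0433 (limma), but the log2 change of -0.94 stayed under the size set for a call. TuPdi (TRIUR3_24343), a protein disulfide isomerase gene that serves the folding of storage proteins, had 17.8, 174 and 204 FPKM at 25 DPA, against 183, 248 and 156 FPKM at 15 DPA, and overlapped as deposited. TuQM (TRIUR3_30652) had 23.8, 319 and 491 FPKM at 25 DPA, against 162, 156 and 116 FPKM at 15 DPA. In both TuPdi and TuQM library 1 of 25 DPA was the lowest of the 6 as deposited, and without it TuQM was called higher (log2 change 1.46, limma adjusted p = 0.0134), a call not made after scaling. Of the 12 named regulators, 11 were tested as deposited and 10 after scaling, and the 1 call on each scale was Tuglup3.

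The NAC genes TRIUR3_00447, TRIUR3_01582 and TRIUR3_25136 and the NF-YC gene TRIUR3_29815 were the most abundant tested members of their families, and were listed at 0 in all flag leaf libraries. TRIUR3_00447 had 13.0, 575 and 122 FPKM at 25 DPA, against 382, 435 and 440 FPKM at 15 DPA. TRIUR3_29815 had 17.6, 371 and 44.5 FPKM at 25 DPA, against 305, 307 and 294 FPKM at 15 DPA. In both genes library 2 of 25 DPA was the highest of the 6 as deposited. That library also held the most prolamin transcript of its stage, though less than any 15 DPA library. None of the 4 was called by limma with all 6 libraries, and without library 2 of 25 DPA all 4 were called lower after scaling, at -2.65, -2.30, -2.57 and -2.67. In that fit 862 of 10874 genes were called lower. The bZIP gene TRIUR3_31111, also listed at 0 in flag leaf, had 18.1, 255 and 511 FPKM at 25 DPA, against 61.8, 68.9 and 60.4 FPKM at 15 DPA. After scaling its groups were separate, with 88.5, 150 and 220 at 25 DPA against 57.3, 55.0 and 56.4 at 15 DPA, just short of a call (log2 change 1.33, SE 0.35, limma adjusted p = 0.0557). Without library 1 of 25 DPA it was called on both scales (2.49 as deposited, 1.76 after scaling).

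The transcription factors called higher after scaling came from several families. The ERF gene TRIUR3_11943 had 6.13, 94.6 and 202 FPKM at 25 DPA, against 15.0, 11.3 and 13.2 FPKM at 15 DPA. The groups overlapped as deposited through library 1 of 25 DPA, whereas the scaled values were separate, at 29.9, 55.6 and 86.6 at 25 DPA against 13.9, 9.0 and 12.3 at 15 DPA, and the gene rose (log2 change 2.09, SE 0.40, limma adjusted p = 0.0248). The trihelix gene TRIUR3_30093 rose by 2.11 on the scaled log2 scale, the Nin-like gene TRIUR3_26920 by 1.95, the bHLH gene TRIUR3_26625 by 1.81 and the SRS gene TRIUR3_31630 by 1.75. TRIUR3_19198, a heat shock factor gene, rose by 1.70, the NAC gene TRIUR3_12483 by 1.58, and the C3H zinc finger genes TRIUR3_09593 and TRIUR3_18803 by 1.55 and 1.38. As deposited, each of these genes overlapped between the stages and had an adjusted p of 0.794 or more, and library 1 of 25 DPA was the lowest of its stage in all of them. Without that library all 9 genes were called higher as deposited, with log2 changes of 2.17 to 3.31. In that fit 2784 of 12500 genes were called higher, and the median log2 change over all genes was 0.60. The 9 genes had been chosen by their scaled rises in these same libraries. After scaling, the Nin-like and bHLH genes alone kept their call without library 3 of 25 DPA. The Nin-like gene was still called under 10 of 13 alternatives, and the NAC gene TRIUR3_12483 under 4.

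In the other direction, the MADS-box gene TRIUR3_28216 had 0.65, 2.50 and 0.84 FPKM at 25 DPA, against 20.1, 22.4 and 18.9 FPKM at 15 DPA. The groups were far apart in every library, and the gene fell after scaling (log2 change -2.98, SE 0.42, limma adjusted p = 0.0118; as deposited -3.28, adjusted p = 0.0762), a call kept under 10 of 13 alternatives. TRIUR3_28216 passed the filter on low values only through 15 DPA, so the call lends no support to the difference. The MYB gene TRIUR3_26358 fell by 2.73 on the scaled log2 scale, the NF-YA gene TRIUR3_22025 by 2.40 and the trihelix gene TRIUR3_28119 by 2.36. On the scaled values all of them also passed the filter on low values only through 15 DPA. Their calls therefore lend no support to the difference. Of these 3, TRIUR3_22025 and TRIUR3_28119 were not called without library 2 of 25 DPA, and none without library 3. The C3H gene TRIUR3_13576 fell by 1.94, a call not made without library 1 or 3 of 25 DPA (log2 change -1.64 and -1.62).

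As deposited, limma called 3 transcription factor genes. The bZIP gene TRIUR3_09193 had 0.84 FPKM in library 2 of 25 DPA and was listed at 0 in libraries 1 and 3, against 7.62, 7.79 and 5.13 FPKM at 15 DPA, and fell on both scales (log2 change -2.66, SE 0.78, limma adjusted p = 0.043 as deposited, and -2.61, adjusted p = 0.00958 after scaling). The YABBY gene TRIUR3_27402 stood at 0 in all 25 DPA libraries, against 1.32, 4.09 and 6.53 FPKM at 15 DPA. The MYB-related gene TRIUR3_30912 had 1.40, 2.94 and 12.2 FPKM at 25 DPA, whereas all 15 DPA libraries listed it at 0. Both were called on both scales. Like TRIUR3_09193, each passed the filter on low values only through the stage where it was detected, so the call lends no support to the difference. After scaling, the calls of TRIUR3_27402 and TRIUR3_30912 were kept under 3 of 9 alternatives each. Without library 2 or 3 of 25 DPA, TRIUR3_27402 was not called on either scale and TRIUR3_09193 not as deposited.

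Over the 29 transcription factor families with at least 5 members in the table, 441 genes were tested as deposited and limma called 1 higher and 2 lower (0.647% and 0.978% of all genes). After scaling 422 were tested, with 19 called higher and 23 lower, near the shares over all genes (4.13% higher and 6.31% lower). The median change of a family was below 0 in 20 of the 29 families as deposited and in 19 after scaling. The NAC family had a median of -0.94 as deposited and -0.97 after scaling over 31 and 28 tested members, with 1 called higher and 1 lower after scaling. For the MADS-box family the medians were -0.70 and -0.93 over 9 tested members on each scale, with 1 called lower after scaling. Among 28 WRKY genes tested after scaling, 3 were called higher and 1 lower, with a median of -0.10.

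Most called genes carried an identifier only, 202 of the 206 as deposited and 1197 of the 1251 after scaling. The largest rise of these was TRIUR3_00886, with 44.9, 385 and 1501 FPKM at 25 DPA, against 1.64 FPKM in library 3 of 15 DPA and a listing at 0 in the other two (log2 change 7.76, SE 1.30, limma adjusted p = 2.83e-05). TRIUR3_27522 had 28.6, 85.2 and 325 FPKM at 25 DPA, whereas all 15 DPA libraries listed it at 0. TRIUR3_29711 had 1.67, 1.06 and 0 FPKM at 25 DPA, against 146, 156 and 163 FPKM at 15 DPA (log2 change -6.47, SE 1.25, limma adjusted p = 0.000352). TRIUR3_12282 was listed at 0 in libraries 1 and 2 of 25 DPA and had 2.08 FPKM in library 3, against 138, 111 and 117 FPKM at 15 DPA. All 4 were called on both scales, and each needed the stage where it was high to pass the filter on low values. TRIUR3_29711 was not called as deposited without library 3 of 25 DPA (adjusted p = 0.0992).

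Both of these fallen genes were far more abundant in flag leaf, where TRIUR3_29711 had 10093 to 16852 FPKM and TRIUR3_12282 4676 to 10315. They belong to 84 genes that averaged at least 1000 FPKM in flag leaf and at least 10 times their 15 DPA mean. These 84 genes summed to 0.0225%, 0.0866% and 0.110% of the total FPKM at 25 DPA, against 0.199%, 0.203% and 0.209% at 15 DPA and 13.8% to 22.7% in flag leaf. At 25 DPA 30, 17 and 28 of them were listed at 0, against 6, 7 and 4 at 15 DPA. The part of green tissue in the falls was not tested. The 22 markers of starchy endosperm, the prolamins and TuGBSSI, were above 0 in all 6 libraries, and the table annotates no marker of embryo, aleurone, seed coat or pericarp.

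The 12 genes with the highest FPKM in any 1 of the 6 libraries, 11 of them without an annotation, took 80.4%, 47.6% and 49.4% of the total at 25 DPA, against 55.2%, 55.4% and 54.6% at 15 DPA. The groups overlapped, with library 1 of 25 DPA above all others and libraries 2 and 3 below them (exact permutation p = 1). The highest, TRIUR3_32831, had 602306, 180609 and 195662 FPKM at 25 DPA, against 223408, 225800 and 203128 FPKM at 15 DPA. The next, TRIUR3_00113, had 383954, 53231 and 66866 FPKM at 25 DPA, against 52450, 53995 and 54987 FPKM at 15 DPA. For both genes the high mean at 25 DPA came from library 1: without it, the log2 change of TRIUR3_32831 was -0.21 as deposited, against 0.35 with all 6 libraries.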

How the data were processed

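RNA-Seq libraries of 3 replicates a stage were compared as 25 against 15 DPA. The authors' deposited table holds FPKM values for 27121 genes, of which 1160 carry an annotation, and the reference table of symbols matched 0 of the identifiers. Bowtie 0.12.2 is named in the submitters' processing notes, while the sources used here give no genome build, annotation or counting program. Per the labels all libraries ran in the same lane, on an Illumina HiSeq. The column headings give stage and number but not the sample, so library numbers are column numbers. Absolute read depth is unknown, so no counting interval was computed.

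From the FPKM values, log2(FPKM + 1) was fitted with limma 3.58.1 in R 4.3.3 (variance trend, 6 libraries, two-sided), over genes of at least 1 FPKM in at least 3 libraries, as deposited and after median-ratio scaling. A log2 change is on this scale, which understates the change of low genes. P-values rest on the spread between the labelled biological replicates, which the deposited fit pools over genes (infinite prior degrees of freedom) and the scaled fit takes in part per gene. Shares were compared by exact permutation tests (Python 3.11.15, scipy 1.17.1). The steps were tested on simulated data. The simulation gave a gene the same spread in both stages, unlike the data, so it does not show how the calls behave under unequal spread. Members and lists were chosen with earlier results of these data known.

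Named genes were the 10 largest called rises and 10 largest called falls of annotated genes, given no overlap and a mean of 10 or more in the higher group, up to 3 of the most abundant members of each list, and 2 rises and 2 falls with an identifier only, for each scale. Other genes were picked after their values were seen. Alternatives were pseudocounts of 0.1 and 5, other filters, no variance trend, 15 endosperm libraries, other scalings, a replicate block and leaving out each library.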

Additional observations from a re-analysis of the deposited data

How the results depend on the processing

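The count of called genes moved with nearly every choice. As deposited (206), it was 99 and 62 with pseudocounts of 0.1 and 5, 31 with no filter, 93 with a filter at 5 FPKM, 909 in the fit of 15 endosperm libraries, 60 without a variance trend, 1251 after median-ratio scaling, 29 after total FPKM scaling, and 0 to 3420 when 1 library was left out. After median-ratio scaling (1251), it was 625 and 808 with those pseudocounts, 590 with no filter, and 14 to 1899 when 1 library was left out. The filter at 5 FPKM (901), the 15-library fit (1733) and no variance trend (1194) kept it within 1.5 times.

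For the prolamins, the deposited count of 0 became 1 with a pseudocount of 5 and after either scaling, 15 in the 15-library fit, and 0 to 13 leaving out 1 library. The scaled count of 1 became 0 with a pseudocount of 0.1 or no filter, 4 with a pseudocount of 5, 5 with a filter at 5 FPKM, 21 in the 15-library fit, 8 without a trend, and 0 to 11 leaving out 1 library. For the starch genes, the deposited count of 0 became 10 in the 15-library fit, 1 without a trend, 8 after median-ratio scaling, and 0 to 15 leaving out 1 library. The scaled count of 8 became 2 with a pseudocount of 0.1, 3 with no filter, and 0 to 17 leaving out 1 library.

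With the library number as a replicate block, limma called 115 genes as deposited and 476 after scaling, 0 prolamins on either scale, and 0 and 4 starch genes. Libraries of the same number did not deviate together (correlations of -0.0351 to 0.0114 as deposited and -0.0432 to -0.0178 after scaling), so the numbers do not pair them.

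The prolamin and starch share differences kept their sign leaving out 1 library (-19.9 to -14.0 and -0.0841 to -0.0594 points), while that of the 12 highest genes ran from -6.54 to 9.84. Among named genes that were not called, leaving out 1 library turned the sign of some log2 changes. As deposited they ran from -1.499 to 0.0058 for TuAGPL-cyto, -0.021 to 2.31 for TuGBSSII, -0.13 to 1.43 for TuISA3, -0.70 to 1.46 for TRIUR3_30652 and -0.21 to 0.66 for TRIUR3_32831, and TRIUR3_30652 also turned under total FPKM scaling (-0.088). After scaling they ran from -0.78 to 0.72 for TuAGPL-cyto, -0.94 to 1.56 for TRIUR3_32831 and -0.58 to 2.36 for TRIUR3_00113. The cause of these shifts was not tested.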
